A study of Homo sapiens with 4 samples.

Results

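A set of 9 genes that switch NF-kB signalling off again, build it or answer to it was followed in irradiated and untreated U-2 OS cells. They were taken by their symbols, as 9 of the 36601 genes in the deposited tables: NFKBIA, TNFAIP3, NFKB1, NFKB2, RELA, RELB, BIRC3, ICAM1 and SOD2. U-2 OS is an established human osteosarcoma line. Cells were exposed to 4 Gy of ionizing radiation (IR) or received no radiation (untreated, UT). There were 2 experiments, with a single library of each group in both. The labels name 48 h in the series design and 24 h in the treatment protocol as the time after IR, and the study's methods give 48 h. Cells were sorted singly into wells, and the 3' ends of their transcripts were counted as unique molecular identifiers (UMIs), short random tags that mark single molecules.

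NF-kB is a family of dimeric transcription factors that is held in the cytoplasm by IkB proteins. Signals from cytokine and pathogen receptors, and from DNA breaks by way of ATM and the IKK complex, lead to the loss of the inhibitor and to entry of the dimer into the nucleus. Among the first genes it turns on are its own inhibitors, which closes a feedback loop. NF-kB is also a known driver of the cytokines that damaged and senescent cells secrete.

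The libraries held 247 and 248 IR cells in experiments 1 and 2, and 358 and 367 UT cells, 1220 in all. Total gene counts lay between 5736339 and 6810079, and the median cell held 20181 and 22035 counts in IR and 15662 and 17627 in UT. Levels are given as CPM, counts per 1000000 gene counts of a library, so they are relative to the total and not per cell. The labelled treatment was visible in CDKN1A, a target of p53, at 959 and 914 CPM in IR and 324 and 277 CPM in UT. The mesenchymal markers VIM, SPARC and COL1A1 were high in all 4 libraries, COL1A2 was below 5 CPM in each, the epithelial genes KRT8 (192 to 293 CPM) and KRT18 (109 to 156 CPM) were detected throughout, and the 5 leukocyte and 4 endothelial markers that were detected stayed below 5 CPM. Because wells of all plates carry barcodes from a common set, 173 to 350 barcodes recurred between any 2 libraries, and these are not shared cells.

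To show what lies in front of these genes, the RefSeq promoter windows of GRCh38.p14, from 250 bases before to 50 bases after a start site, were searched on both strands for the NF-kB consensus motif, 10 bases long. Of the 9 genes, 8 matched the table, with 15 windows, and RELB had no entry. The motif was found in 6 of the 15 windows (40%) and in 11.3% of all 35116 windows of the table. The windows of 4 genes are printed 5′ to 3′ with the motif in capitals. They show matches in genes that were higher in IR in the blocked fit, in which the experiment is a term (TNFAIP3 and BIRC3), and in genes that were called in no fit that was run (NFKBIA and NFKB1). NFKB2, with 3 and 2 matches in its windows, was not called in that fit, and SOD2, with 0 in 4 windows, was higher in it. The windows are, for TNFAIP3, chr6:137867009-137867308 on the plus strand, for BIRC3, chr11:102317234-102317533 on the plus strand, for NFKBIA, chr14:35404700-35404999 on the minus strand and, for NFKB1, chr4:102501109-102501408 on the plus strand.
TNFAIP3: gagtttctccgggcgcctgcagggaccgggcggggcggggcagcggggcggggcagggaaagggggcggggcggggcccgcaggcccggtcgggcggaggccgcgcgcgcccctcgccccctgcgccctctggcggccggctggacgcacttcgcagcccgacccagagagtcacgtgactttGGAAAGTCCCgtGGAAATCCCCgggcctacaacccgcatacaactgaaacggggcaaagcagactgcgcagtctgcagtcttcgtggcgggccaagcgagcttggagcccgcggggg
BIRC3: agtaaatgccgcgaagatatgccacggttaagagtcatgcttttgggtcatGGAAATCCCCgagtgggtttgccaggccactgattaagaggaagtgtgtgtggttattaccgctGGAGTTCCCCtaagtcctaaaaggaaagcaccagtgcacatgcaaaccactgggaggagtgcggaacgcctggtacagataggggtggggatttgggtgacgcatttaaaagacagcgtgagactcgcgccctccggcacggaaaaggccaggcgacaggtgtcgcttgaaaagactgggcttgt
NFKBIA: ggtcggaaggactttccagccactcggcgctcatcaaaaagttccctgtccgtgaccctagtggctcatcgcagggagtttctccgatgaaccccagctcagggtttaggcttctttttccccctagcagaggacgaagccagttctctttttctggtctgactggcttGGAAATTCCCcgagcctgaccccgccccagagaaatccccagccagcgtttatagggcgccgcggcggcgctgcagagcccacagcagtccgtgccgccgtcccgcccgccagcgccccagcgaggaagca
NFKB1: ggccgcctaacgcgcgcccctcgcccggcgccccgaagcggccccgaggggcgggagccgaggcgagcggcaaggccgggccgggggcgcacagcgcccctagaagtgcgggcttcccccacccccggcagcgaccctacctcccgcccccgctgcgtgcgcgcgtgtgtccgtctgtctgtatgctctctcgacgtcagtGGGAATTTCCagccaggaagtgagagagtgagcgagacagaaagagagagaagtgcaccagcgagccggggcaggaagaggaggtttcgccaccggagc
The matches lay 67 and 55 bases before the start in TNFAIP3, 199 and 135 bases before it in BIRC3, 81 bases before it in NFKBIA and 49 bases before it in NFKB1. NFKB2 had matches in 2 of its 3 windows, 2 of them overlapping. None was found in the windows of RELA (2), ICAM1 (1) and SOD2 (4). A match describes these letters only and is no measure of binding, and windows without one may hold sites that the motif misses.

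Of the 9 genes, SOD2 differed most clearly between IR and UT, followed by RELB, TNFAIP3 and BIRC3, which were each about 1.5 to 1.8 times as high in IR as in UT. NFKBIA, NFKB1, RELA and NFKB2 differed little, and ICAM1 was close to 0. In 5 genes the CPM values did not overlap between the groups, all higher in IR (SOD2, RELB, TNFAIP3, BIRC3 and NFKB1), a pattern that 30.7% of the 14647 genes tested also showed in that direction. Summed counts were compared across the 2 IR and 2 UT libraries with edgeR's quasi-likelihood test, and a gene was called at a Benjamini-Hochberg adjusted p under 0.05 over all genes tested. All 9 genes entered the test and 0 were called, while 1.63% of all genes were called higher and 0.847% lower. At an unadjusted p under 0.05 there were 2 (SOD2 and RELB), where 18.4% of all genes were, and DESeq2 called 1 (SOD2), with 2.33% of all genes higher. The experiment number pairs the libraries. With it as a block in the fit, 4 of the 9 were higher and 0 lower, where 14.3% of all genes were called higher and 12.9% lower. The median log2 fold change of the 9 was 0.31, and that of all genes tested was -0.00. This median of 0.31 is the value of ICAM1, which rests on few counts. The blocked fit rests on 1 residual degree of freedom. Leaving out a library from the unblocked fit keeps 1 library in a group. The log2 fold changes of SOD2, RELB, TNFAIP3, BIRC3 and NFKB2 then stayed positive. Those of NFKBIA, NFKB1, RELA and ICAM1 took both signs across these fits.

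**Figure D1:**
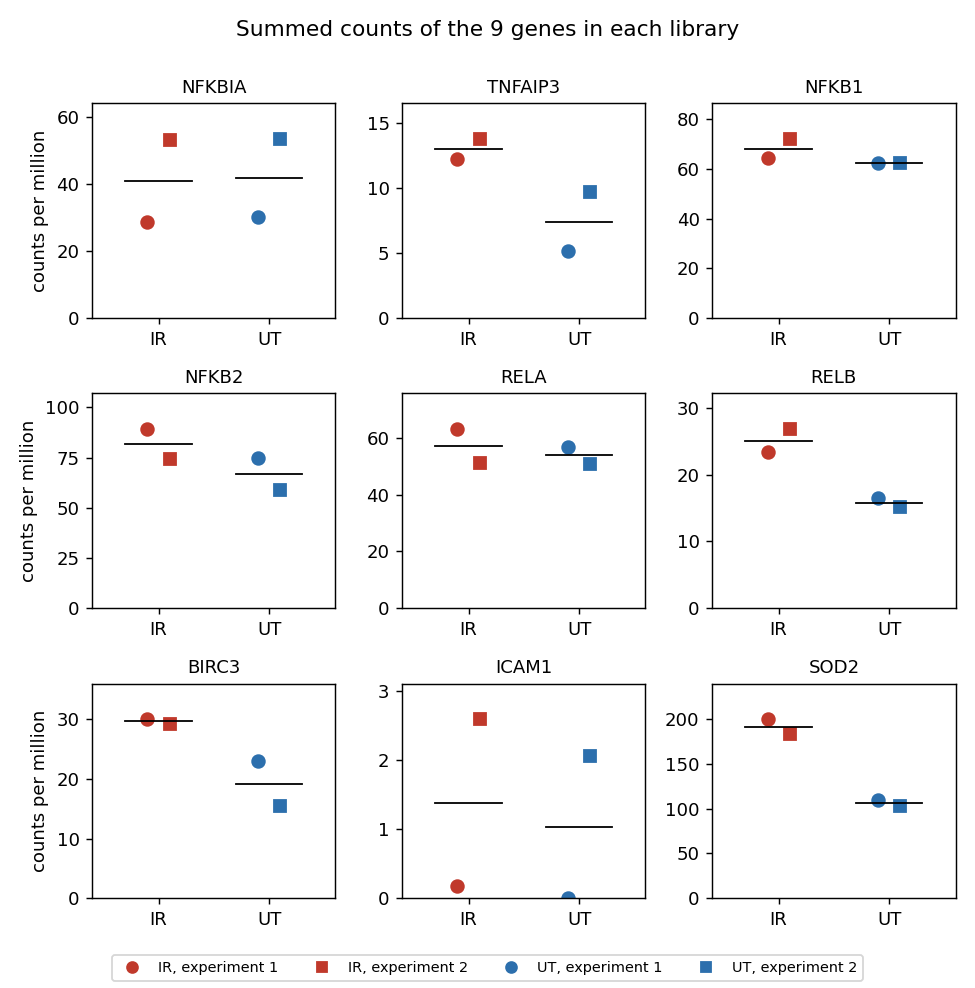
CPM of the 9 genes (y axis, linear, a scale of its own in each panel) in the IR libraries, left, and the UT libraries, right, where circles mark experiment 1, squares mark experiment 2 and lines mark the mean of 2 libraries. SOD2 sits at 199.6 and 183.5 CPM in IR, above both UT libraries, while the NFKBIA points separate by experiment and not by group.

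The feedback inhibitors NFKBIA and TNFAIP3 did not show the same pattern. NFKBIA (ENSG00000100906; GENCODE release 44, chr14:35401079-35404749, minus strand) encodes IkB-alpha, the inhibitor that NF-kB induces within a short time and that is lost and remade in each round of signalling. It was at 28.8 and 53.2 CPM in IR experiments 1 and 2, and at 30.2 and 53.5 CPM in the UT experiments. Experiment 2 was high and experiment 1 low in both groups, and the groups overlapped. The log2 fold change was -0.11 ± 0.36 (SE; edgeR adjusted p = 0.922). Within the experiments the IR to UT ratio was 0.954 (95% interval 0.767 to 1.19) and 0.995 (0.855 to 1.16), by an exact interval on the UMI counts that covers counting error only.

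TNFAIP3 (ENSG00000118503; chr6:137867214-137883314, plus strand) encodes a ubiquitin-editing enzyme that takes apart the signalling complexes upstream of IKK. It was at 12.2 and 13.7 CPM in IR and at 5.11 and 9.69 CPM in UT. Both IR libraries were above both UT libraries. Its log2 fold change was 0.72 ± 0.33 (SE; edgeR adjusted p = 0.304), and 0.74 ± 0.23 with the block (adjusted p = 0.0122). The ratio was 2.39 (1.54 to 3.79) in experiment 1 and 1.42 (1.02 to 1.99) in experiment 2. These rest on 70 and 85 UMIs in IR and 30 and 66 in UT, and the log2 value ranged between 0.35 and 1.25 when each library was left out. WAKMAR2, on the other strand, overlaps the gene by 1020 bases, and the use of strand in counting is not given in the sources used here.

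Of the 5 Rel genes, whose products pair into the NF-kB dimers, 4 belong to the set. RELA encodes the main transactivating subunit of the canonical pathway. It was at 63.1 and 51.2 CPM in IR and at 56.9 and 50.8 CPM in UT, with overlapping groups and a log2 fold change of 0.01 ± 0.18 (SE; edgeR adjusted p = 0.993). NFKB1 encodes a precursor that is cut to the usual partner of RELA, and it was at 64.3 and 71.9 CPM in IR and at 62.5 and 62.3 CPM in UT. The groups did not overlap, but the difference was small (log2 fold change 0.05 ± 0.15, SE, edgeR adjusted p = 0.922), with ratios of 1.03 (0.888 to 1.19) and 1.16 (1.01 to 1.32) within the experiments.

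The non-canonical pair, NFKB2 and RELB, gave higher values in IR within both experiments. NFKB2, a precursor whose processing releases the non-canonical dimer, was at 89.1 and 74.2 CPM in IR and at 74.6 and 59.0 CPM in UT. Experiment 1 was higher than experiment 2 in both groups, so that the lower IR library fell just under the higher UT library. The log2 fold change was 0.21 ± 0.19 (SE; edgeR adjusted p = 0.640) and 0.21 ± 0.11 with the block (adjusted p = 0.161), and the ratios were 1.19 (1.05 to 1.36) and 1.26 (1.10 to 1.44).

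RELB (ENSG00000104856; chr19:45001461-45038192, plus strand), the partner of processed NFKB2 and itself a target of NF-kB, was at 23.4 and 26.8 CPM in IR and at 16.5 and 15.1 CPM in UT. No UT library reached either IR library. RELB had a log2 fold change of 0.59 ± 0.19 (SE; edgeR adjusted p = 0.167) and 0.59 ± 0.17 with the block (adjusted p = 0.00581). Ratios were 1.41 (1.08 to 1.85) in experiment 1 and 1.77 (1.38 to 2.29) in experiment 2. The remaining Rel gene, REL, was at 14.0 and 19.1 CPM in IR and at 15.2 and 20.1 CPM in UT (log2 fold change -0.18, edgeR adjusted p = 0.777).

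Among the target genes, SOD2 (ENSG00000112096 in the tables; GENCODE release 44 lists the symbol at chr6:159669069-159762529, minus strand) encodes the mitochondrial superoxide dismutase, which turns superoxide into hydrogen peroxide. It was at 199.6 and 183.5 CPM in IR and at 109.1 and 103.2 CPM in UT. The 2 IR libraries lay well above the UT libraries, with a gap larger than the spread within either group (SD 11.4 CPM in IR and 4.13 CPM in UT, n = 2 each). SOD2 had a log2 fold change of 0.77 ± 0.15 (SE), which is 1.71-fold, with an edgeR adjusted p of 0.0508, just outside the threshold. It was past the threshold with the block (adjusted p = 7.05e-10), with library totals in place of TMM (0.0393; 2.01% of all genes higher), without the filter on low counts (0.00215; 3.57% of all genes higher) and with DESeq2 (0.0126). The ratios were close to each other, at 1.83 (1.66 to 2.02) in experiment 1 and 1.77 (1.61 to 1.95) in experiment 2. A lncRNA on the same strand, SOD2-OT1, lies over 2075 bases of the gene, and WTAP and ACAT2 overlap it on the other strand. None of these 3 covers its 3' end, where the counting takes place, and their part in the counts was not tested.

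BIRC3 (ENSG00000023445; chr11:102317484-102339403, plus strand) encodes a ubiquitin ligase of the inhibitor of apoptosis family, which acts at the TNF receptor and restrains the kinase of the non-canonical pathway. It was at 30.0 and 29.3 CPM in IR and at 23.0 and 15.4 CPM in UT. Both IR libraries were above the UT libraries, which differed from each other. Its log2 fold change was 0.55 ± 0.23 (SE; edgeR adjusted p = 0.276) and 0.57 ± 0.16 with the block (adjusted p = 0.00537). The ratio was 1.30 (1.03 to 1.65) in experiment 1 and 1.90 (1.48 to 2.44) in experiment 2. Its paralogue BIRC2 lies 7807 bases away, and the authors left reads shared between genes uncounted.

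ICAM1 encodes an adhesion molecule that binds leukocyte integrins and is among the best known targets of NF-kB in endothelium. It had 1 and 16 counts in IR (0.174 and 2.59 CPM) and 0 and 14 counts in UT (2.06 CPM in experiment 2). Both experiment 2 libraries held nearly all of its counts, in either group. In experiment 2 the ratio was 1.26 (0.576 to 2.78), and no difference was detectable at this depth. The leukocyte marker list moved in the same way, summing to 2.62 and 13.1 CPM in IR and to 1.36 and 11.7 CPM in UT, with 4 of its 5 detected genes higher in experiment 2 in both groups. Its part in the ICAM1 counts was not tested. The antisense lncRNAs LIMASI and ICAM4-AS1 overlap ICAM1, and ICAM4-AS1 covers its 3' end.

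**Figure D2:**
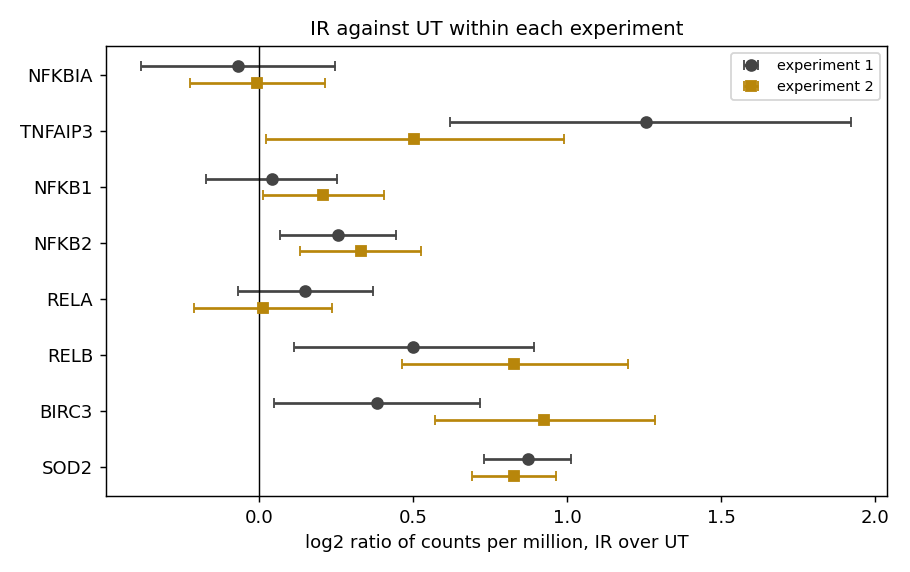
Log2 ratio of CPM, IR over UT (x axis), for 8 of the 9 genes (y axis) in experiment 1 (circles) and experiment 2 (squares), with exact 95% intervals for counting error only. ICAM1 is left out because UT experiment 1 held no UMI. The intervals of SOD2, BIRC3, RELB, TNFAIP3 and NFKB2 lie above 0 in both experiments, and those of NFKBIA and RELA cross it in both.

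It was also asked whether more cells held a transcript. Each cell was first thinned at random to 8000 UMIs, so that the higher counts of IR cells gave no advantage. This kept 231 and 232 IR cells and 333 and 356 UT cells and left out 16, 16, 25 and 11. SOD2 was found in 61.5% and 63.4% of IR cells and in 46.8% and 52.2% of UT cells. The exact (Clopper-Pearson) 95% intervals were 54.9 to 67.8% and 56.8 to 69.6% in IR and 41.4 to 52.4% and 46.9 to 57.5% in UT, apart in experiment 1 and overlapping slightly in experiment 2. Before thinning the shares were 83.8% and 85.5% in IR and 65.9% and 74.4% in UT. The share with 3 or more SOD2 UMIs was 17.7% and 14.7% in IR and 7.21% and 4.49% in UT, so that cells with several copies were more frequent as well.

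RELB was found in 16.9% and 15.5% of IR cells and in 9.61% and 11.5% of UT cells. BIRC3 was found in 12.6% and 12.9% of IR cells and in 7.21% and 6.74% of UT cells, and TNFAIP3 in 7.36% and 10.3% of IR cells and 4.20% and 5.90% of UT cells. For all 3 genes the IR share was above the UT share in both experiments, and the intervals of the groups overlapped in each. With cells thinned to 4000 UMIs, the difference for experiment 1 fell to 0.622 percentage points for RELB and 0.342 for BIRC3.

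NFKB2 was found in 46.8% and 45.3% of IR cells and in 43.8% and 37.6% of UT cells. For NFKB1 the shares were 39.0% and 36.2% in IR and 36.0% and 36.2% in UT, and for RELA 31.6% and 33.6% in IR and 36.9% and 29.2% in UT. NFKBIA was found in 16.9% and 28.0% of IR cells and in 18.0% and 32.0% of UT cells, again lower in experiment 1. For these 4 genes the intervals of IR and UT overlapped in both experiments. ICAM1 was found in 1 of 231 and 4 of 232 IR cells, and in 0 of 333 UT cells in experiment 1, which allows a share of cells with a UMI of up to 0.901%, and 6 of 356 in experiment 2. The mean number of the 9 genes found per cell was 2.33 and 2.47 in IR and 2.03 and 2.13 in UT.

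**Figure D3:**
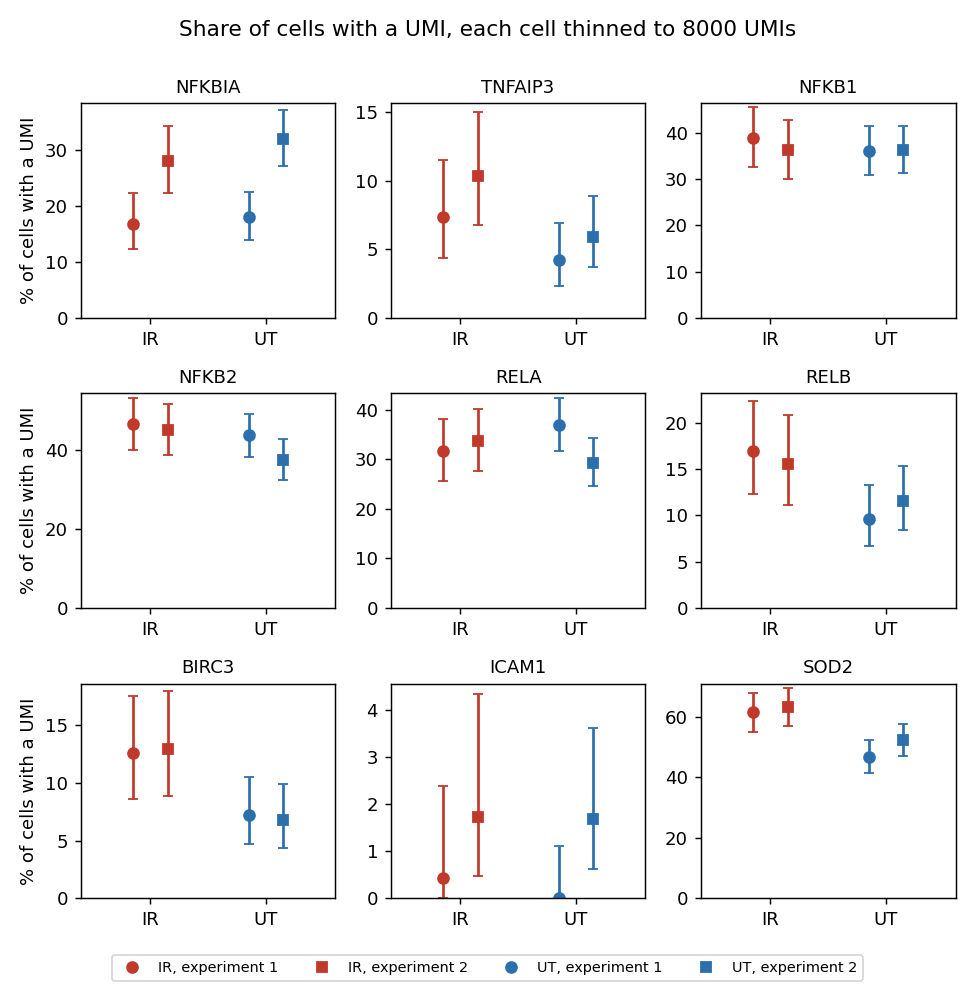
Percent of cells with at least 1 UMI of each gene after thinning to 8000 UMIs (y axis, a scale of its own in each panel), in IR, left, and UT, right, where circles mark experiment 1 and squares experiment 2. Bars are exact 95% binomial intervals for counting error only. SOD2 in experiment 1, at 61.5% in IR against 46.8% in UT, is the only case where the intervals of the groups are apart.

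The genes differed in how unevenly cells held them. Over the thinned cells, the variance of NFKB1 and RELA UMIs was 0.958 to 1.23 times their mean in the 4 libraries, where random counting alone gives a ratio near 1. For SOD2 the ratio was 5.61 and 3.99 in IR and 4.44 and 1.34 in UT. BIRC3 had ratios of 4.90 and 6.18 in IR and 10.9 and 1.99 in UT. For both genes UT experiment 2 was the most even library.

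A large part of the BIRC3 UMIs came from a few cells. Before thinning, the highest cell held 38 of 172 BIRC3 UMIs in IR experiment 1 and 33 of 181 in IR experiment 2. In UT the highest cell held 48 of 135 in experiment 1 and 12 of 105 in experiment 2. The 5 highest cells held 46.5% and 47.0% of the BIRC3 UMIs in IR and 61.5% and 35.2% in UT. The UT cell with 48 BIRC3 UMIs also had 36 of SOD2, in a total of 13306 UMIs, and the IR experiment 1 cell with 38 had 61 of SOD2 and 17 of NFKB2. The IR experiment 2 cell with 33 had only 6 of SOD2. Without the highest cell of each library BIRC3 was at 23.5 and 24.0 CPM in IR and at 14.9 and 13.7 CPM in UT, and the groups stayed apart. Without the 5 cells of each library with the largest share of UMIs from the 9 genes, a setting added once the values were known, its log2 fold change was 0.83 ± 0.22 (SE; edgeR adjusted p = 0.104, and 4.78e-04 with the block, where 14.2% of all genes were called higher). These cells were picked by UMIs that include those of BIRC3, so the 2 p-values cannot be read as tests.

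Pearson's r between pairs of the 9 genes, on log UMIs of the thinned cells of a library, lay between -0.12 and 0.34. It was computed for 28 of the 36 pairs, in the libraries where more than 5% of cells had each gene. No gene elsewhere in the table reached the set r of 0.3 in all 4 libraries with NFKB1, NFKB2, RELA or SOD2, the genes found in at least 20% of cells of every library.

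IR and UT cells also differed in their UMIs of cell cycle genes, so the genes were compared within classes. Cells were divided at the pooled median of 33 summed UMIs of 24 cell cycle genes at 8000 UMIs. Under the median were 68.0% and 69.4% of IR cells and 34.2% and 39.0% of UT cells. SOD2 in cells under the median was at 242.0 and 228.4 CPM in IR and at 187.2 and 119.6 CPM in UT. In cells at or over the median it was at 128.6 and 110.1 CPM in IR and at 73.9 and 95.5 CPM in UT. IR was higher than UT in each class and both experiments, and SOD2 was higher in the cells with few cycle UMIs in all 4 libraries. With cells divided at the quartiles, this order did not hold throughout. In the cells below the lowest quartile SOD2 was at 268.2 and 261.2 CPM in IR and at 368.3 and 137.2 CPM in UT, so that UT was the higher group in experiment 1, with intervals apart (247.0 to 290.7 in IR and 321.4 to 420.0 in UT, counting error only). That UT group had 39 cells and 222 SOD2 UMIs, of which the highest cells held 45, 36 and 32. The IR group had 99 cells and 589 SOD2 UMIs, with 47, 40 and 40 in its highest cells. Intervals for counting error do not cover such differences between cells. The log2 fold change was 0.55 ± 0.23 (SE; edgeR adjusted p = 0.337, and 7.82e-06 with the block) under the median and 0.42 ± 0.20 (adjusted p = 0.431, and 0.0355 with the block) at or over it, against 0.77 in all cells. The blocked fits called 8.44% of all genes higher under the median and 8.01% at or over it.

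BIRC3 had log2 fold changes of opposite sign in the 2 classes. Under the median it was at 24.6 and 28.4 CPM in IR and at 54.1 and 25.3 CPM in UT. At or over the median it was at 40.9 and 29.9 CPM in IR and at 7.90 and 10.5 CPM in UT. The log2 fold change was -0.63 ± 0.34 (SE; edgeR adjusted p = 0.479, and 0.0302 with the block) under the median and 1.85 ± 0.28 (adjusted p = 0.0232, and 1.49e-07 with the block) at or over it. The unblocked fit called 0.772% of all genes higher at or over the median, and the blocked fit 7.53% lower under it. The difference of the 2 effects, at or over minus under, was 2.42 ± 0.35 (SE; edgeR adjusted p = 6.52e-04), in a fit where 0.589% of 13590 genes were called. The cells richest in BIRC3 lay on opposite sides of the median: the IR cells with 38 and 33 BIRC3 UMIs had 46.7 and 46.2 cycle UMIs per 8000, and the UT experiment 1 cells with 48 and 18 had 2.40 and 5.81. At or over the median, the IR experiment 1 cell with 38 stood against 84 BIRC3 UMIs in 74 cells. In IR experiment 2, cells with 33 and 18 held most of the 67 UMIs of 71 cells, so the class values rest on few cells. Without the 5 cells of each library with the largest share of UMIs from the 9 genes the difference was 0.46 ± 0.35 (SE; edgeR adjusted p = 0.747), where 0.596% of 13592 genes were called. In that fit SOD2 had a difference of -0.58 ± 0.14 (SE; edgeR adjusted p = 0.0348), against -0.18 ± 0.39 (adjusted p = 0.951) with all cells. The left-out cells were picked by their UMIs of these same genes, so the p-values of that fit cannot be read as tests.

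**Figure D4:**
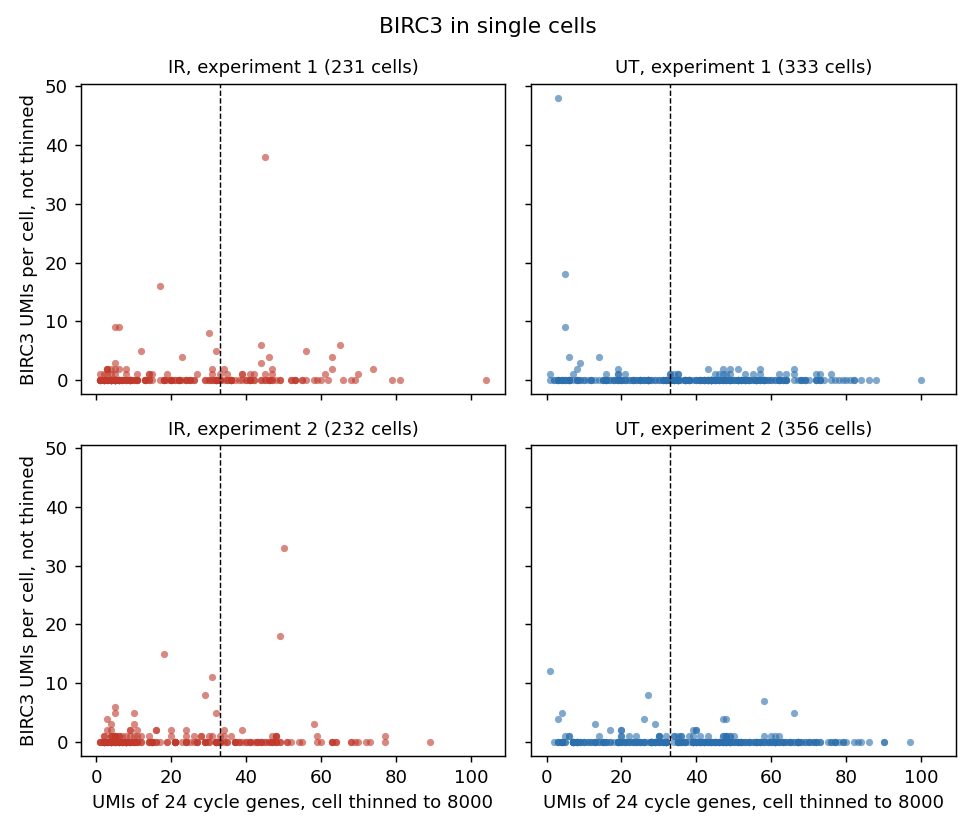
BIRC3 UMIs of each cell before thinning (y axis) against the summed UMIs of 24 cell cycle genes after thinning to 8000 (x axis), with IR on the left, UT on the right, experiment 1 above and experiment 2 below, and the pooled median of 33 as a dashed line. Most cells are at 0, and the highest cells, with 38 and 33 UMIs in IR and 48 in UT experiment 1, lie on opposite sides of the line.

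For the other classes of genes in the pathway, 99 genes were listed and 85 were tested. Of these, 6 were called higher and 0 lower by edgeR without the block (1.63% and 0.847% of all genes), and 27 were higher and 2 lower with it (14.3% and 12.9% of all genes). Their median log2 fold change was 0.21. Without IR experiment 1, 1 gene of these lists was called, without UT experiment 1 there were 3, and without either other library there were 5. Of the 6 genes, 1, 2, 2 and 3 were still called without IR experiments 1 and 2 and UT experiments 1 and 2, in fits that called 0.588% to 1.02% of all genes higher.

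Of 12 further IkB genes and inhibitors, 1 was called higher (8.33%, against 1.63% of all genes), and 3 were with the block (25%, against 14.3%). CYLD, a deubiquitinase that restrains the pathway, was at 75.8 and 75.3 CPM in IR and at 41.1 and 39.7 CPM in UT (log2 fold change 0.83 ± 0.16, SE, edgeR adjusted p = 0.0479). Its groups were far apart, but it was not called when any single library was left out. NFKBIZ, an atypical nuclear IkB, was at 58.9 and 44.3 CPM in IR and at 21.5 and 28.1 CPM in UT (log2 fold change 0.98, adjusted p = 0.0724, and 2.12e-06 with the block). NFKBIE, a cytoplasmic IkB, was at 18.3 and 22.8 CPM in IR and at 11.3 and 9.54 CPM in UT (log2 fold change 0.90, adjusted p = 0.0965, and 1.67e-04 with the block). For all 3 the IR value was above the UT value in both experiments. They were named for their small p in this list, so that order follows largely from the choice.

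Of 22 kinases and adaptors 0 were called, and 1 had an unadjusted p under 0.05 (4.55%, against 18.4% of all genes). With the block 2 were higher (9.09%, against 14.3% of all genes), namely BIRC2, the close relative of BIRC3 (log2 fold change 0.54, edgeR adjusted p = 0.161, and 1.68e-04 with the block), and TRAF6, an adaptor of interleukin and Toll-like receptors (0.39, 0.273, and 0.0349 with the block). Of 8 genes that carry the signal from DNA damage to IKK, 0 were called and 1 was lower with the block (12.5%, against 12.9% of all genes). PARP1, a sensor of DNA breaks, was at 174.3 and 172.8 CPM in IR and at 223.6 and 235.7 CPM in UT (log2 fold change -0.48, edgeR adjusted p = 0.132, and 2.49e-05 with the block). PIDD1, a scaffold in this route, had a log2 fold change of 0.37 (adjusted p = 0.465). The median log2 fold change was 0.07 for kinases and adaptors and -0.13 for the damage list.

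Of 11 receptors 9 were tested, 0 were called and 3 had an unadjusted p under 0.05 (33.3%, against 18.4% of all genes). With the block 5 were higher (55.6%, against 14.3% of all genes). TLR4, the receptor for lipopolysaccharide, was at 48.3 and 32.7 CPM in IR and at 21.8 and 20.6 CPM in UT (log2 fold change 0.85, edgeR adjusted p = 0.110, and 7.86e-06 with the block). TLR3, which senses double-stranded RNA, was at 5.93 and 7.44 CPM in IR and at 0.852 and 2.79 CPM in UT (log2 fold change 1.76, adjusted p = 0.120, and 4.95e-05 with the block). For both receptors, which were named for their small p, all IR libraries lay above the UT libraries, as for 30.7% of all genes tested. Of 9 ligands only 3 passed the filter on low counts, and TNF was among those left out. IL1A, an interleukin of the secreted response of damaged cells, was called higher, at 3.84 and 4.85 CPM in IR and 0.511 and 0.881 CPM in UT (log2 fold change 2.51 ± 0.47, SE, edgeR adjusted p = 0.0482). LTB, a membrane-bound TNF relative, had a log2 fold change of -0.30 (adjusted p = 0.889). The other ligand tested, IL1B, had 2 and 21 UMIs in IR and 0 and 22 in UT (log2 fold change 0.10, not called).

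Of 36 other known targets 30 were tested, and 4 were called higher (13.3%, against 1.63% of all genes) and 0 lower (0.847% of all genes). With the block 16 were higher (53.3%, against 14.3% of all genes) and 1 lower (3.33%, against 12.9%). KYNU, an enzyme of tryptophan breakdown, showed the largest of the 4 changes, at 7.85 and 6.63 CPM in IR and 0.682 and 0.881 CPM in UT (log2 fold change 3.09 ± 0.39, SE, edgeR adjusted p = 0.0203). CSF1, the growth factor of macrophages, was at 26.5 and 23.3 CPM in IR and at 4.26 and 8.22 CPM in UT (1.90 ± 0.32, adjusted p = 0.0387). SDC4, a cell surface proteoglycan, was at 176.4 and 227.6 CPM in IR and at 82.7 and 94.9 CPM in UT (1.11 ± 0.18, adjusted p = 0.0356). Every IR library was above every UT library for these genes. Their choice by the test favours this pattern, which 30.7% of all genes tested also showed. IL32, a cytokine, was at 129.7 and 127.4 CPM in IR and at 70.6 and 59.8 CPM in UT (0.90 ± 0.16, adjusted p = 0.0435). TAP1, which moves peptides towards HLA class I, and PLAU, the urokinase, came next by p, with log2 fold changes of 1.19 (edgeR adjusted p = 0.0514) and 0.74 (0.0758). The median log2 fold change of the tested targets was 0.70, and that of all genes tested was -0.00. Since this list too was chosen with earlier results known, its shares and median are descriptions only. When single libraries were left out, KYNU and CSF1 lost the call without IR experiment 1, SDC4 without IR experiment 2 or UT experiment 1, and IL32 and IL1A whichever library was left out.

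**Figure D5:**
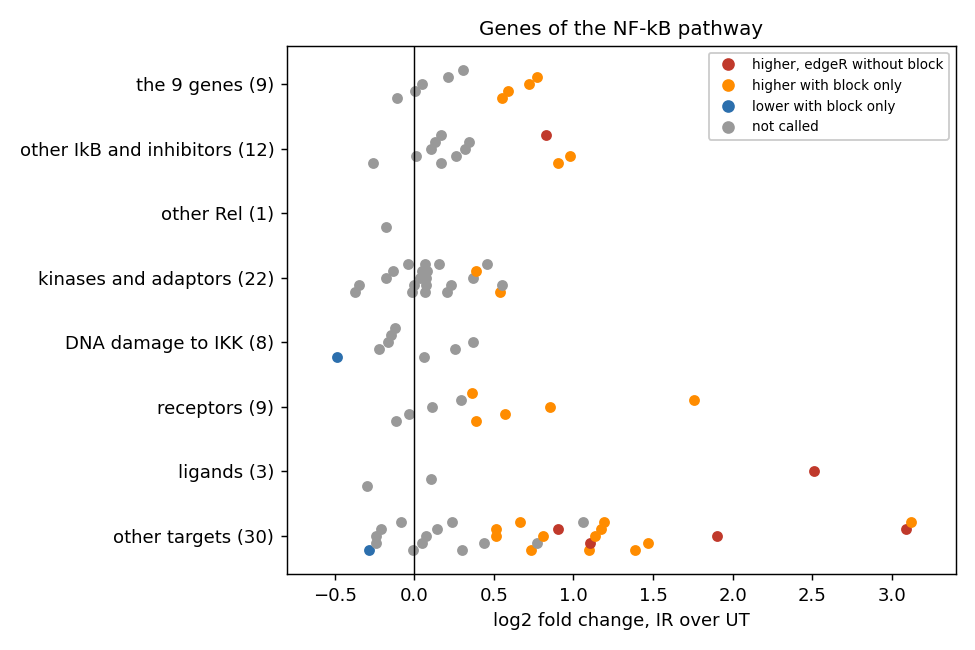
IR over UT log2 fold change in the unblocked edgeR fit (x axis) for each tested gene of the 8 lists (y axis, with the number tested, points offset for legibility). Red points are called without the block, orange points are called higher and blue points lower only with it, and grey points are not called. The red points are CYLD, IL1A and 4 other targets, and 4 of the 9 genes are orange.

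All of these levels are relative to total RNA. With library sizes taken from the ERCC spike-ins, RNAs of known sequence added to the samples, the median of all genes tested moved to 0.74, the 9 genes lay between 0.57 (NFKBIA) and 1.70 (TNFAIP3), and 0 of them and 0 of all genes were called without the block. Spike-ins made up 0.191% and 0.952% of all counts in IR experiments 1 and 2, and 0.318% and 1.21% in UT. The common coefficient of variation, edgeR's measure of spread between libraries, was 0.900 in that fit and 0.177 in the main fit. With the block and the spike-ins, the median of all genes was 0.61 and 5 of the 9 were called higher, where 34.2% of all genes were. Relative to that shift the order of the genes was much as before, with NFKBIA lowest and SOD2 and TNFAIP3 highest. In the remaining fits whose counts of the 9 genes are given at the end, the share of all genes called higher was 18.9% with the block and library totals, 3.93% with the block in DESeq2, and 1.65% and 14.7% without the highest cell of each library, unblocked and blocked.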

How the data were processed

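The authors mapped read 2 to GRCh38.p13 with STARsolo, without intronic reads, multi-gene reads or a UMI minimum, and the submitters' processing notes also name Seurat 5. The deposited matrices hold expected counts, UMIs corrected for tags that coincide by chance (4096 possible tags of 6 bases), of 36601 genes and 92 ERCC spike-ins. The design had allowed for plain counts. About 99.9% of the values of each library lie on that correction within their rounding to 3 significant digits, so observed UMIs were recovered for thinning and intervals. Deposited values were summed per library and rounded for tests. Spike-ins stayed out of sizes and tests. For strand and the barcode filter the sources used here give no rule.

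Cells are not replicates, and all 1220 barcodes were used. No doublet caller was run, since cells were sorted singly into wells. Groups came from sample titles. Tests used edgeR 4.0.16 (R 4.3.3; TMM, filterByExpr, robust quasi-likelihood, group only), with DESeq2 1.42.0, library totals, spike-in sizes, no filter, equal cells, classes of cells and each library left out as alternatives. SE is the absolute log2 fold change divided by the square root of F. Libraries were paired by experiment, which the titles name. Deviations of paired libraries from their group means had r = 0.635 over 14647 genes, and edgeR's common coefficient of variation was 0.177 unblocked and 0.0727 blocked. All p-values describe only how these 4 libraries spread, with the spread of each gene estimated in part from that of the other genes tested. Scripts were tested on simulated data. The 9 genes and all lists were chosen with earlier results of these data known. Genes named besides these are all that passed the unblocked test in each list and the 2 with the smallest p among the rest, with CDKN1A as a check of labels. TNF was named after its values were seen.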

Additional observations from a re-analysis of the deposited data

Results flagged for a closer look

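The effect of IR on BIRC3 differed between cells at or over and cells under the pooled median of cell cycle UMIs. The difference of the 2 log2 fold changes was 2.42 ± 0.35 (SE; edgeR interaction test, adjusted p = 6.52e-04), with a log2 fold change of 1.85 at or over the median, where IR was higher in both experiments, and -0.63 under it, where IR was lower in experiment 1 (24.6 CPM against 54.1 in UT) and higher in experiment 2 (28.4 CPM against 25.3 in UT). These values rest on few cells. At or over the median, a cell of IR experiment 1 held 38 of 84 BIRC3 UMIs, and in IR experiment 2 cells with 33 and 18 held most of 67. Under it lay the UT experiment 1 cells with 48 and 18. Without the 5 cells of each library that held the largest share of UMIs from the 9 genes the difference was 0.46 ± 0.35 (edgeR interaction test, adjusted p = 0.747). The left-out cells were picked by UMIs that include those of BIRC3, so this p-value cannot be read as a test.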

How the results depend on the processing

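Without the block 0 of the 9 genes were called in the main fit. This became 4 with the replicate block, 1 with library totals, DESeq2, no filter or without the top cell of each library (SOD2 each time), and 1 in cells at or over the cycle median (BIRC3). Blocked fits gave 5 with spike-in sizes, 5 with library totals, 2 in cells under and 2 in cells at or over the cycle median, 1 with DESeq2, and 4 without the top cell or the top 5 cells. Each of the 4 fits that left out a library gave 0. In the main fit the block changed the calls of SOD2, RELB, BIRC3 and TNFAIP3 and of no other gene of the 9. In cells under the median the blocked fit called SOD2 higher and BIRC3 lower. Of the other pathway genes 6 were called, against 29 with the replicate block, 0 with spike-in sizes, 10 with DESeq2, 19 without a filter, 3 with equal cells, 1 in cells under and 3 in cells at or over the cycle median, and 1 to 5 with a library left out. Of all genes 1.63% were called higher, against 1.37% with equal cells, 0.546% in cells under and 0.772% in cells at or over the median, and 0.588% to 1.02% with a library left out. Blocked fits called 47 with spike-in sizes, 37 with library totals, 20 and 17 in cells under and at or over the median, 12 with DESeq2, and 31 and 30 without the top cell and the top 5. The blocked combinations and the trimmed sets were chosen after seeing the data. Trimmed cells were picked by their UMIs of the 9 genes, so calls of these genes in trimmed sets cannot be read as tests. The cause of these changes was not tested.

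SOD2, RELB, TNFAIP3 and NFKB2 had positive log2 fold changes in every fit run, and BIRC3 in all but the fits of cells under the median (-0.63, and -0.59 with the block). NFKBIA was 0.57 with spike-in sizes (0.50 with the block) and 0.035 in cells at or over the median (0.037 with the block), and ranged from -0.61 to 0.35 with a library left out. NFKB1 was -0.21 in cells under the median (-0.21 with the block) and as low as -0.028, up to 0.11, with a library left out. RELA was -0.080 in cells under the median (-0.087 with the block), -0.0022 with equal cells and -0.17 to 0.16 with a library left out. ICAM1, at most 16 counts, was -0.060 with equal cells and -2.55 to 6.05 with a library left out, and could not be fitted in the classes of cells. The difference of the effect on RELB between classes was 0.04, and -0.22 without the top 5 cells. Shares of cells depended on depth: of 36 shares, 31, 29 and 33 moved beyond their interval at 4000 UMIs, at 12000 UMIs and without thinning, and 1 with another random seed. The shares of SOD2, RELB, BIRC3, TNFAIP3 and NFKB2 were higher in IR than in UT in both experiments at each of these settings. The settings draw on the same cells, so they are not independent of each other. Without thinning, where IR cells held more counts, the shares of NFKBIA, NFKB1, RELA and ICAM1 were higher in IR in both experiments as well.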
